A study of Mus musculus with 13 samples.

Results

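The aryl hydrocarbon receptor set holds 7 of the 43430 genes of the count table: the receptor Ahr, its partner Arnt, its repressor Ahrr, the target genes Cyp1a1, Cyp1b1 and Tiparp, and Cd93, which was listed with them. They were taken by gene symbol from a given list, and each matched a single Ensembl identifier. The RNA came from alveolar macrophages, the resident macrophages of the air spaces, isolated from lung tissue by flow cytometry. The mice were male, of strain C57Bl/6 and aged 10 weeks. The 13 libraries fell into 4 groups of biological replicates, and the study's title concerns metformin and thrombosis induced by air pollution. Mice of the vehicle PBS group (n = 4) drank water without metformin and received phosphate-buffered saline (PBS) into the trachea. Mice of the vehicle PM group (n = 3) drank the same water and received 10 µg of reference particulate matter (PM) issued by NIST, the US standards institute. The metformin PBS (n = 3) and metformin PM (n = 3) groups took metformin at 100 mg/kg/day in the drinking water, begun 24 h before the same instillations. All lungs were collected 24 h after instillation, so the values describe a single time.

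The aryl hydrocarbon receptor is a ligand-activated transcription factor of the bHLH-PAS family. It waits in the cytoplasm in a complex with the chaperone HSP90 and the co-chaperone p23. Polycyclic aromatic hydrocarbons and dioxins, which are carried by combustion particles, and tryptophan metabolites such as kynurenine bind it. The ligand-bound receptor enters the nucleus, pairs with ARNT and binds the xenobiotic response element, whose core is GCGTG. The cytochrome P450 genes Cyp1a1 and Cyp1b1, which oxidise aromatic hydrocarbons, are its best known targets. Ahrr and Tiparp are targets that feed back: the AHRR protein competes for ARNT, and TIPARP is a mono-ADP-ribosyltransferase that modifies the receptor and lowers its activity. CD93 is a transmembrane protein with a C-type lectin domain, found on endothelial and myeloid cells, and is not one of the classic target genes.

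The sequence just before the start of 4 target genes is printed to show where the core letters lie in genes whose transcripts ranged from nearly absent to abundant. The windows come from RefSeq (build GRCm38.p6) and end at or before the gene's start in the count table, so no transcribed base of that model is included. They are written from 5′ to 3′ on the strand of the gene, and capitals mark GCGTG or, where the match is on the other strand, its complement CACGC. Cyp1a1 is chr9:57697363-57697612 (plus strand), Ahrr is chr13:74292332-74292581 (minus strand), Cyp1b1 is chr17:79715062-79715311 (minus strand) and Tiparp is chr3:65528197-65528409 (plus strand).
Cyp1a1: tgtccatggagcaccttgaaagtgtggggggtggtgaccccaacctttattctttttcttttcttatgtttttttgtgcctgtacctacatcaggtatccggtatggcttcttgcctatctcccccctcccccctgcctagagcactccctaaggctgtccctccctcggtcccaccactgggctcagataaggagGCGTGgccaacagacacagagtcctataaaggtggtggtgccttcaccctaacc
Ahrr: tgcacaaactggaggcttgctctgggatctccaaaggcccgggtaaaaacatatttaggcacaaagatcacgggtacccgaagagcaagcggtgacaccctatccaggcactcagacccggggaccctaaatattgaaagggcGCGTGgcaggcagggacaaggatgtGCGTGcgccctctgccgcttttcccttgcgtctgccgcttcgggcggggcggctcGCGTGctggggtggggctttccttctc
Cyp1b1: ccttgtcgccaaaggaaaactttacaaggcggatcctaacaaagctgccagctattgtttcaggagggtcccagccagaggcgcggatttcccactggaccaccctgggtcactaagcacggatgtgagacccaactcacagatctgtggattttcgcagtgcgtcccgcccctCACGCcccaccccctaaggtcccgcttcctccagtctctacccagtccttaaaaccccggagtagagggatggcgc
Tiparp: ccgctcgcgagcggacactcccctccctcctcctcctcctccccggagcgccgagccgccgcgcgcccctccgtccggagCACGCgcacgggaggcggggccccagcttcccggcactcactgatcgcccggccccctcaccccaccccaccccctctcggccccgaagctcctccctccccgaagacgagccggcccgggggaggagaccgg
Cyp1a1 held 1 core, starting 54 bases before the RefSeq start. Ahrr held 3, at 107, 82 and 27 bases, and 1 of them read TNGCGTG, the longer form of the element. Cyp1b1 held 1 at 76 bases and Tiparp 1 at 170 bases, both on the other strand. All positions count from the RefSeq start. For Tiparp the last 37 bases before that start are left out of the printed window, which holds 213 bases. The window of Arnt (chr3, not printed) held 1 at 29 bases. Windows of Ahr and Cd93 were not analysed here. These letters are common: of 32851 windows of 250 bases, 28.2% held GCGTG on either strand at least once, 2.8% held it at least 3 times and 4.1% held TNGCGTG. The same core overlaps that of the hypoxia-response element, and a match of letters is a description of the sequence, not a measured binding site.

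Library totals ran from 5567481 to 8100538 counts, so 1 count was worth 0.124 to 0.179 CPM (the count divided by the scaled library size in megareads). All 14 alveolar macrophage markers examined were present in each group, with a summed level of 22900 to 29580 CPM. Most of that sum was Chil3 (17100 CPM in vehicle PBS), so it mainly follows this gene. Single markers changed, though: 4 of the 14 rose and 4 fell with PM on vehicle water, where 4.85% of all tested genes were called. On metformin 7 rose and 2 fell with PM, beside 12.8% of all tested genes. Marco alone was called with metformin after PBS (3.07% of all tested genes), where it was lower (-1.11 ± 0.17, edgeR adjusted p = 0.00245). With metformin after PM (6.89%), Plet1 and Cidec rose and Car4 fell. Neutrophil markers summed to 58.5 to 82.7 CPM, with Retnlg, Camp and Ly6g at 0 in each library. Most of the sum was Mmp8 and Csf3r, at 32.5 and 29 CPM in vehicle PBS. Of the 4 tested, Mmp8 alone was called. It was lower with metformin after PBS (log2 fold change -0.67 ± 0.13, edgeR adjusted p = 0.00888), where 3.07% of all tested genes were called. With PM on metformin (12.8% of all tested genes) it was higher (0.43 ± 0.14, edgeR adjusted p = 0.0498), but not called by DESeq2 or limma-voom. In these bulk libraries fewer expressing cells and less RNA per cell cannot be told apart. Nothing in the labels names a batch, so no value within batches could be given.

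Only Arnt, Tiparp and Cd93 were measured well. Divided by exon length, the mean level over the 13 libraries was 30.4 CPM per kilobase for Tiparp, higher than 85.9% of tested genes. Arnt followed with 9.13 CPM per kilobase (higher than 59.3%) and Cd93 with 5.29 CPM per kilobase (higher than 44.3%). The receptor itself stood far lower, at 0.258 CPM per kilobase, above only 1.62% of tested genes. Ahrr came next at 0.0431, Cyp1a1 at 0.0206 and Cyp1b1 at 0.00214 CPM per kilobase. Counted over all libraries, Tiparp had 11282 reads, Arnt 6249, Cd93 3040, Ahr 138, Ahrr 35, Cyp1a1 5 and Cyp1b1 1. Tiparp was highest and Ahr below Arnt and Cd93 in each library, and Arnt was above Cd93 in each but vehicle PM 2 (8.54 against 11.0 CPM per kilobase). Exact Poisson 95% intervals were 24.4 to 48.7 counts for Ahrr, 1.62 to 11.7 for Cyp1a1 and 0.0253 to 5.57 for Cyp1b1. Divided by exon length, the intervals of Ahrr and Cyp1a1 overlap, and so do those of Cyp1a1 and Cyp1b1.

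**Figure D1:**
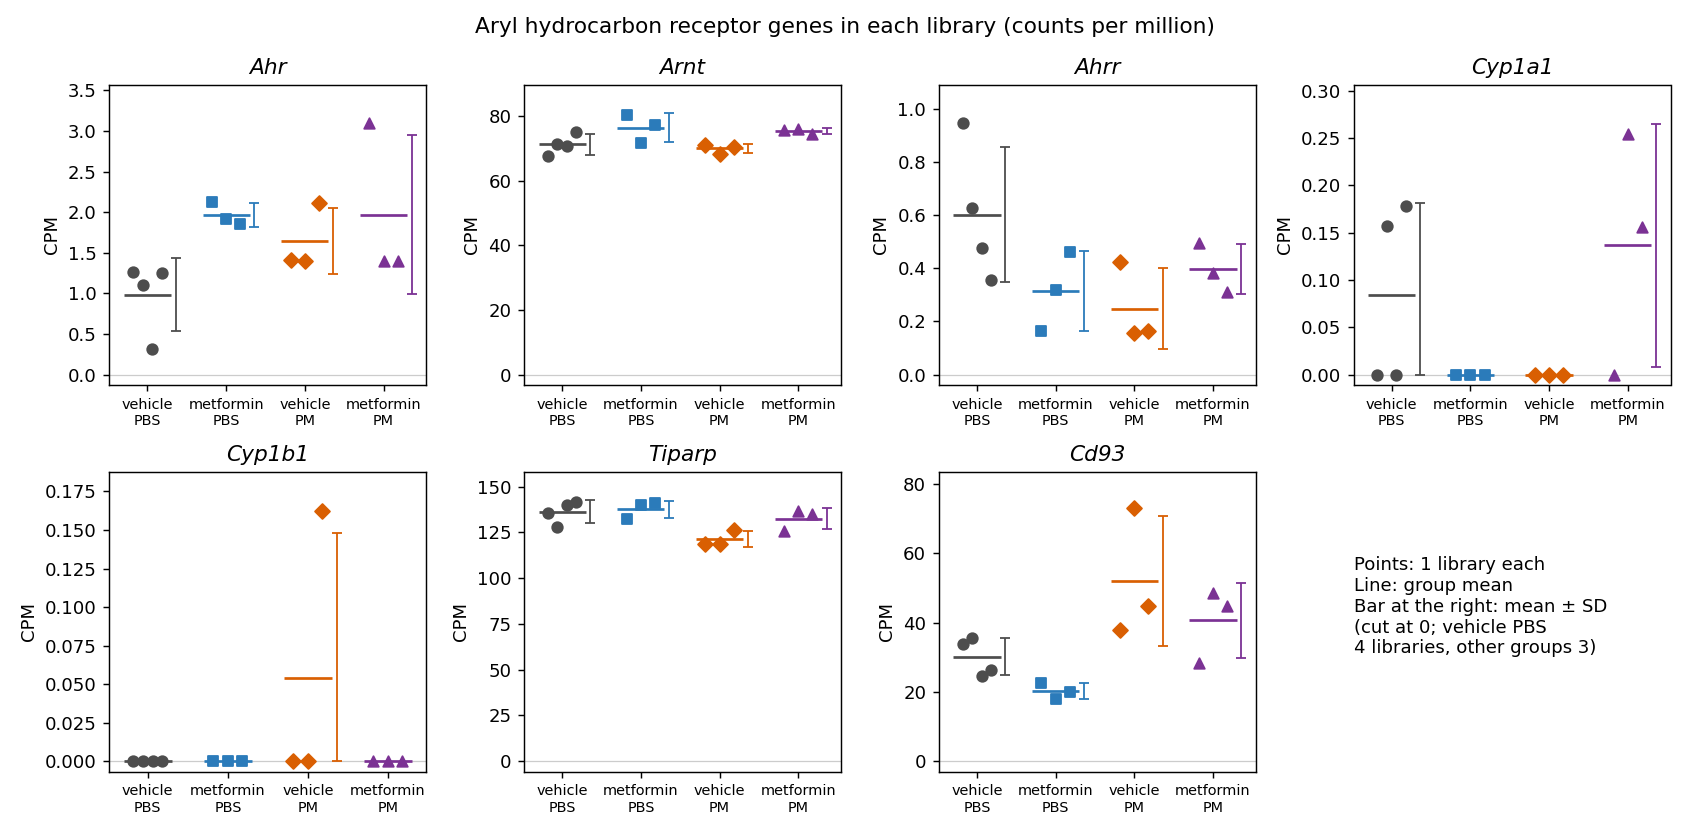
Level of each of the 7 genes in CPM (linear axes that differ between panels), with 1 point per library, a line at the group mean and a bar of 1 SD either side, drawn no lower than 0. Cd93 is the gene whose PM libraries sit above the PBS libraries in both drinking-water arms, and Cyp1a1 and Cyp1b1 have a level above 0 in 4 and 1 of the 13 libraries.

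Of the 7 genes, 4 had enough reads to be tested (Ahr, Arnt, Tiparp and Cd93) by edgeR's quasi-likelihood test over 11906 genes, with Benjamini-Hochberg adjustment and a threshold of 0.05. With PM on vehicle water 1 of them rose, Cd93, and none fell, in a comparison that called 4.85% of all tested genes. With PM on metformin 1 rose, again Cd93, beside 12.8% of all tested genes. For metformin after PBS the count was 0 (3.07% of all tested genes), with 2 genes at an unadjusted p under 0.05, Ahr and Cd93. For metformin after PM it was 0 (6.89%), with 1 at an unadjusted p under 0.05, Tiparp, and for the difference of the PM effects 0 (1.44%), with 0 unadjusted. DESeq2 and limma-voom also called 0 in these 3 comparisons. The comparisons share libraries: the PM effect on vehicle and the metformin effect after PBS both use vehicle PBS, for example, so their values are given side by side and were not correlated.

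**Figure D2:**
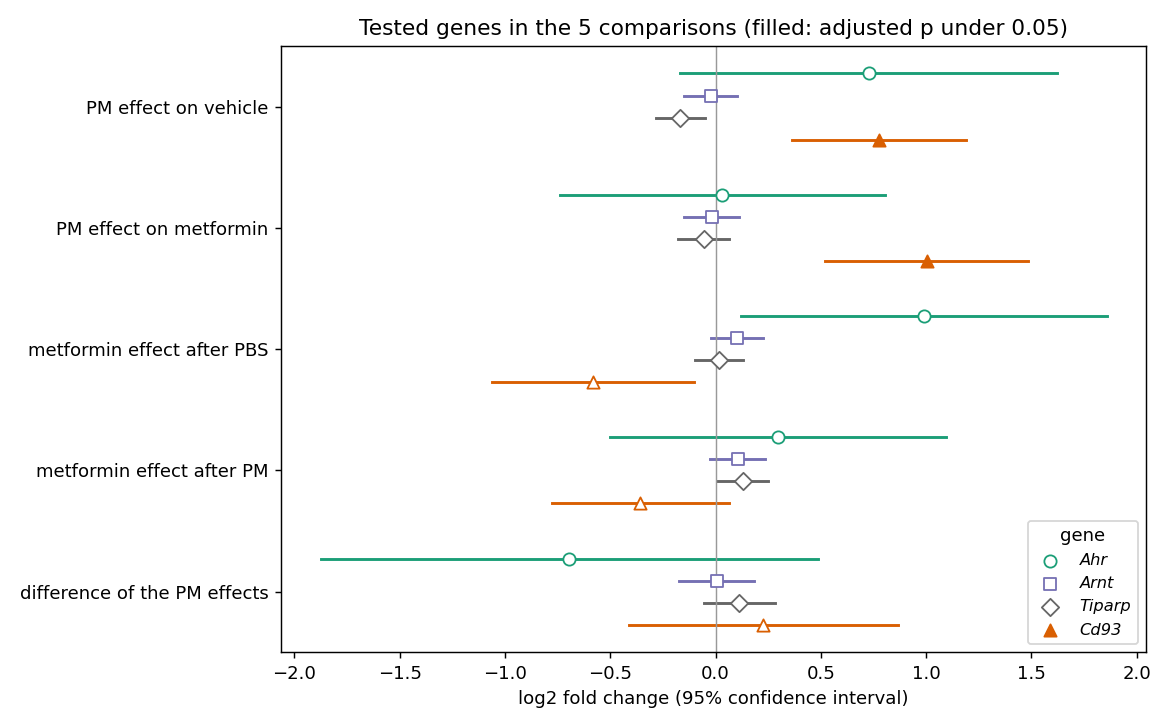
Log2 fold change of the 4 tested genes in the 5 comparisons, with the 95% confidence interval from edgeR; a filled mark has an adjusted p under 0.05. The filled marks are the PM effects on Cd93, at 0.78 on vehicle and 1.003 on metformin; the intervals of Arnt and Tiparp are narrow and those of Ahr are wide.

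Ahr (ENSMUSG00000019256, chr12:35497974-35535038, minus strand, mm10) encodes the receptor. Its raw counts were 8, 7, 2 and 7 in vehicle PBS, 13, 12 and 12 in metformin PBS, 10, 9 and 13 in vehicle PM, and 25, 11 and 9 in metformin PM. Vehicle PBS was the lowest group, with no count above 8, and the single highest library was metformin PM 1. As CPM the group means were 0.983 ± 0.449 (SD, n = 4), 1.96 ± 0.147 (n = 3), 1.64 ± 0.409 (n = 3) and 1.97 ± 0.983 (n = 3) in the same order. Summed over the libraries, the 24 counts of vehicle PBS have an exact Poisson 95% interval of 15.4 to 35.7, and the 37, 32 and 45 counts of the other groups have intervals of 26.1 to 51.0, 21.9 to 45.2 and 32.8 to 60.2. Vehicle PBS sums 4 libraries and the other groups 3, and the intervals cover counting error only.

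None of the Ahr differences passed the test. After PBS, metformin libraries were all above vehicle libraries, with a log2 fold change of 0.99 ± 0.41 (SE; edgeR adjusted p = 0.211). PM on vehicle gave 0.73 ± 0.43 (edgeR adjusted p = 0.436), again without overlap between the groups. On metformin the PM groups overlapped, at 0.03 ± 0.37 (edgeR adjusted p = 0.971), and metformin after PM gave 0.30 ± 0.38 (edgeR adjusted p = 0.732). The difference of the PM effects was -0.69 ± 0.57 (edgeR adjusted p = 0.702). Ahr reached the filter's 1.57 CPM in 5 libraries, 3 of metformin PBS, 1 of vehicle PM and 1 of metformin PM, so it entered the test through groups where it was high. Without metformin PM 1 the values of both comparisons that use that group turned, to -0.49 for PM on metformin and -0.22 for metformin after PM.

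Arnt (ENSMUSG00000015522, chr3:95434388-95497240, plus strand) encodes the partner that the receptor needs on DNA and that HIF proteins use too. Its level was 67.6, 71.4, 70.6 and 75.2 CPM in vehicle PBS, 80.4, 71.5 and 77.2 in metformin PBS, 71.1, 68.4 and 70.6 in vehicle PM, and 75.6, 76.0 and 74.4 in metformin PM. All 13 values lay between 67.6 and 80.4 CPM. PM left it within the spread of the libraries: the log2 fold change was -0.02 ± 0.06 (95% interval -0.15 to 0.10; edgeR adjusted p = 0.9) on vehicle and -0.02 ± 0.06 (-0.15 to 0.11; edgeR adjusted p = 0.893) on metformin. Metformin gave 0.10 ± 0.06 after PBS (edgeR adjusted p = 0.391) and 0.11 ± 0.06 after PM (edgeR adjusted p = 0.364). After PM the metformin libraries did not overlap the vehicle libraries, yet the gap was small and was not called. The difference of the PM effects was 0.00 ± 0.09 (edgeR adjusted p = 0.991).

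Ahrr (ENSMUSG00000021575, chr13:74211118-74292331, minus strand), the repressor gene that ligands of the receptor induce in many cells, was close to the limit of detection. Its counts were 6, 4, 3 and 2 in vehicle PBS, 1, 2 and 3 in metformin PBS, 3, 1 and 1 in vehicle PM, and 4, 3 and 2 in metformin PM. The groups overlapped, and vehicle PM was no higher than vehicle PBS. Pooled over both drinking-water arms, the 7 PBS libraries held 21 counts (0.483 CPM, exact Poisson 95% interval 0.299 to 0.739) and the 6 PM libraries 14 counts (0.333 CPM, 0.182 to 0.559). The intervals overlap, and a difference smaller than they allow was not detectable at this depth.

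Cyp1a1 (ENSMUSG00000032315, chr9:57697613-57703822, plus strand), the monooxygenase used as the standard readout of receptor activation, had 0, 1, 0 and 1 counts in vehicle PBS, 0 in each of the 3 libraries of metformin PBS and of vehicle PM, and 0, 2 and 1 in metformin PM. No library had more than 2 reads, and PM-exposed and saline libraries overlapped. The 7 PBS libraries together held 2 counts (0.0460 CPM, exact Poisson 95% interval 0.00557 to 0.166), and the 6 PM libraries 3 counts (0.0714 CPM, 0.0147 to 0.209). In vehicle PM the count of 0 allows a level of up to 0.153 CPM by the floor of 3 counts over the group and up to 0.188 CPM by the exact Poisson 95% limit. Cyp1b1 (ENSMUSG00000024087, chr17:79706953-79715041, minus strand), the related enzyme of extrahepatic tissues, had 1 count in vehicle PM 3 and 0 in the other 12 libraries. Neither gene entered the test, and a change below these limits could not have been seen.

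Tiparp (ENSMUSG00000034640, chr3:65528410-65555518, plus strand) was the best measured target. Its level was 135.8, 127.7, 139.8 and 141.8 CPM in vehicle PBS, 132.4, 139.8 and 140.9 in metformin PBS, 118.9, 118.6 and 126.2 in vehicle PM, and 125.9, 136.8 and 134.9 in metformin PM. Vehicle PM was the lowest group, and all of its libraries lay below all those of vehicle PBS, the nearest at 126.2 against 127.7 CPM. The log2 fold change with PM on vehicle was -0.17 ± 0.06 (95% interval -0.285 to -0.052), which was not called after adjustment (edgeR adjusted p = 0.101). On metformin the PM libraries overlapped those of PBS, at -0.06 ± 0.06 (-0.179 to 0.066; edgeR adjusted p = 0.6). The upper bounds of these intervals, -0.052 and 0.066, bound any rise of Tiparp with PM at this confidence.

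Metformin gave a Tiparp difference of 0.02 ± 0.06 after PBS (edgeR adjusted p = 0.923) and 0.13 ± 0.06 after PM (edgeR adjusted p = 0.223), where metformin PM 1 lay just below vehicle PM 3. The difference of the PM effects was 0.11 ± 0.08 for Tiparp (edgeR adjusted p = 0.644). Tiparp shares up to 223 bases of exon with 4931440P22Rik on the opposite strand, and the library kit keeps no strand. That neighbour had 36 to 72 counts per library, 6.41% of the Tiparp total; whether any of its reads were counted for Tiparp was not tested.

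Cd93 (ENSMUSG00000027435, chr2:148436640-148443563, minus strand) rose with PM in both drinking-water arms. Its level was 33.9, 35.7, 24.7 and 26.4 CPM in vehicle PBS and 37.9, 73.2 and 44.9 CPM in vehicle PM. All libraries of vehicle PM lay above all of vehicle PBS, though the nearest, at 35.7 and 37.9 CPM, were close and vehicle PM 2 stood far above the rest. The log2 fold change was 0.78 ± 0.20 (1.71-fold; 95% interval 0.36 to 1.19; edgeR adjusted p = 0.0242). The call was lost without vehicle PM 2 (0.44, adjusted p = 0.249), without vehicle PBS 3 (0.69, adjusted p = 0.0731), without vehicle PBS 4 (0.72, adjusted p = 0.0710) and with DESeq2 (0.79, adjusted p = 0.0698). The direction was the same in each of these fits.

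On metformin, Cd93 stood at 22.59, 18 and 20.02 CPM after PBS and at 28.3, 48.66 and 44.97 CPM after PM. The groups did not overlap, and metformin PM 1 was the lowest of the PM libraries. The rise was 1.003 ± 0.23 on the log2 scale (2-fold; 95% interval 0.52 to 1.48; edgeR adjusted p = 0.00643). Without metformin PM 3 it was 0.83 (adjusted p = 0.0507). The PM effects in the 2 arms were not shown to differ (0.23 ± 0.31; 95% interval -0.41 to 0.87; edgeR adjusted p = 0.847).

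Metformin was not called for Cd93. After PBS all 3 metformin libraries lay below all 4 vehicle libraries, at -0.58 ± 0.23 on the log2 scale (95% interval -1.06 to -0.10; edgeR adjusted p = 0.179). After PM the groups overlapped, at -0.36 ± 0.20 (-0.78 to 0.06; edgeR adjusted p = 0.339), and without vehicle PM 2 that value was -0.03. Among the 4 groups the means ran from 20.2 ± 2.30 CPM in metformin PBS through 30.2 ± 5.42 in vehicle PBS and 40.6 ± 10.8 in metformin PM to 52.0 ± 18.7 in vehicle PM (SD, n = 4 for vehicle PBS and 3 otherwise). The SD of both PM groups was wide against the step between them.

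Because endothelial and monocyte-lineage cells also express Cd93, their markers were read in the same libraries. The 12 endothelial markers summed to 181.6 to 200.5 CPM in vehicle PBS, 177.1 to 179.2 in metformin PBS, 199.3 to 248.4 in vehicle PM and 197.9 to 222.5 in metformin PM. Of the 10 tested, 1 rose with PM on vehicle (4.85% of all tested genes were called) and 3 on metformin (12.8%), and none fell. Most of the sum was Vwf, which rose by 0.39 ± 0.07 on vehicle (edgeR adjusted p = 0.00168) and by 0.28 ± 0.08 on metformin (edgeR adjusted p = 0.0177; 0.22 to 0.31 with 1 library left out, called in 10 of 13 such fits). The other calls on metformin, Cldn5 (1.59 ± 0.51) and Esam (1.504 ± 0.43), held in 6 of 13 and 8 of 12 such fits. That of Cldn5 was lost with limma-voom and with library totals and that of Esam with DESeq2. The group mean of Esam was above the filter's 1.57 CPM only in metformin PM (1.85 CPM). The defining junction gene Cdh5 had 3.58, 3.36, 4.51 and 7.04 CPM in the PBS groups without and with metformin and in the PM groups in the same order, and was not called with PM on either water. None of the 12 was at 0 in all libraries, and Emcn had 26 counts in total.

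The 16 markers of monocytes and monocyte-derived macrophages summed to 577.2 to 671.0 CPM in vehicle PBS, 575.0 to 693.7 in metformin PBS, 726.4 to 832.7 in vehicle PM and 800.7 to 864.9 in metformin PM. Of the 7 tested, 4 rose with PM on each water (Itgam, Cd14, Mmp12 and Mmp14) and none fell. Among all tested genes 4.85% were called on vehicle and 12.8% on metformin. Mmp14 was at 0.439 and 0.576 CPM in vehicle PBS and metformin PBS, below the filter's 1.57 CPM. It entered the test through the PM groups, at 12.3 and 12.9 CPM, so the count was tilted toward a rise. Nearly all of the sum was Cd14 (591 CPM in vehicle PBS and 708 CPM in vehicle PM), whose call on vehicle held in 10 of 13 fits with 1 library left out (0.20 to 0.30). The monocyte-defining Ly6c2 had 5 counts over all libraries, and Ccr2 was at 8.26 CPM in vehicle PBS and 7.22 CPM in vehicle PM and was not called. Markers of other lung cells moved with PM on metformin, where 12.8% of all tested genes were called, but gave no call with PM on vehicle. The 10 fibroblast markers summed to 9.725 to 20.58 CPM in vehicle PBS, 9.549 to 13.91 in metformin PBS, 7.628 to 23.57 in vehicle PM and 24.33 to 37.66 in metformin PM, with Lum at 0 throughout. Of the 5 tested, 3 rose on metformin, Col1a1 (1.43 ± 0.41), Col1a2 (1.41 ± 0.36) and Inmt (1.03 ± 0.33), in 8, 10 and 4 of 13 fits with 1 library left out, and Inmt was also lost with limma-voom, library totals and the replicate block. The 12 epithelial markers summed to 238.8 to 283.3, 240.6 to 294.5, 230.1 to 271.5 and 261.3 to 304.9 CPM in the same groups, and none was at 0. Most of the sum was Epcam and Cdh1 (114 and 101 CPM in vehicle PBS), so it mainly follows these genes. Krt8, Krt18 and Nkx2-1 were at 0.158, 0.0396 and 0.243 CPM there. Of the 9 tested, 4 rose on metformin, the surfactant genes Sftpc (1.23 ± 0.27), Sftpa1 (1.51 ± 0.33) and Sftpb (1.26 ± 0.33) and the type 2 cell gene Lamp3 (1.67 ± 0.47), and Epcam fell (-0.42 ± 0.12). The calls of Sftpc and Sftpa1 held with each library left out, that of Sftpb in 11 of 13 fits and those of Lamp3 and Epcam in 10. The group mean of Lamp3 was above the filter's 1.57 CPM only in metformin PM (2.65 CPM). Cdh1 was lower with metformin after PBS (-0.435 ± 0.09, edgeR adjusted p = 0.0136), a call held in 12 of 13 fits. Markers of the alveolar macrophages themselves moved as well. Marco, Car4, Fabp4 and Atp6v0d2 rose with PM on both waters, and Siglecf and Ear1 fell. Marco averaged 372 and 172 CPM after PBS without and with metformin, and 570 and 465 CPM after PM. This is the group order of Cd93, and it is not particular to Marco. The group means of Car4, Fabp4 and the endothelial marker Vwf had the same order, and those of Atp6v0d2 did not. The PM effects on Marco were 0.62 ± 0.16 on vehicle and 1.435 ± 0.18 on metformin (edgeR adjusted p = 0.0248 and 1.84e-05). The part of any of these cell types, the macrophages included, in the Cd93 difference was not tested.

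**Figure D3:**
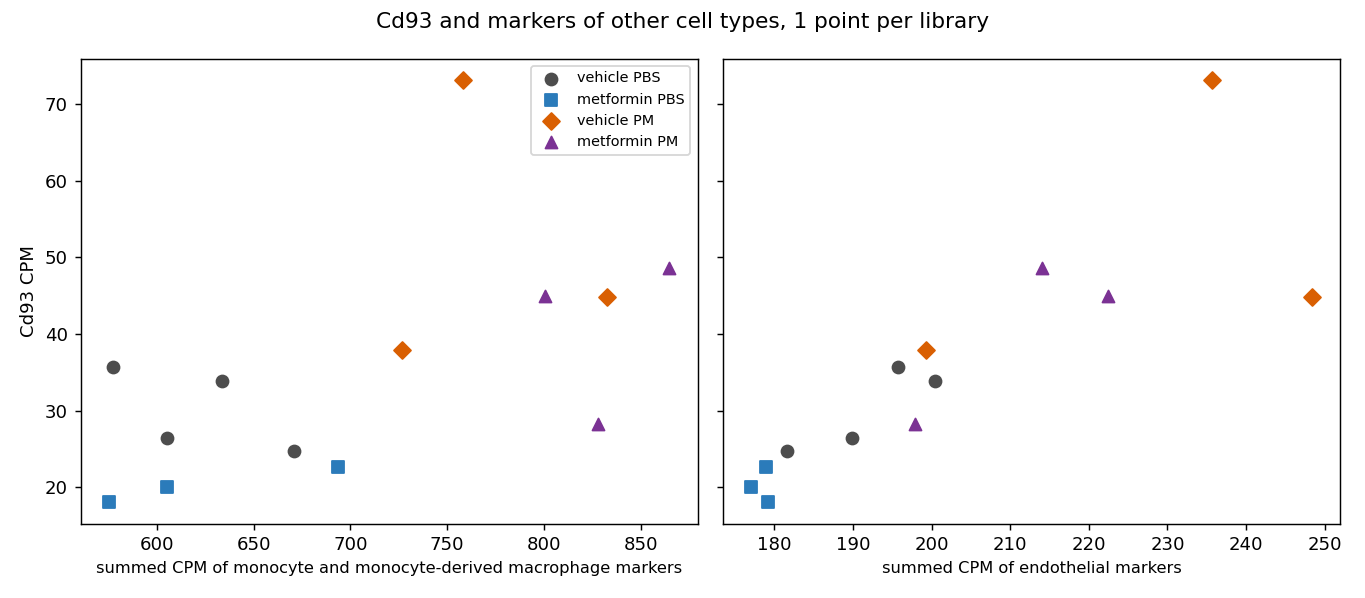
Cd93 level (CPM, vertical axis) against the summed CPM of monocyte and monocyte-derived macrophage markers (left, nearly all Cd14) and of endothelial markers (right, mostly Vwf), with 1 point per library and a symbol per group; the axes do not start at 0. Libraries of metformin PBS, with Cd93 between 18 and 22.59 CPM, have the lowest endothelial sums, and vehicle PM libraries reach the highest ones.

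Arnt belongs to the same protein family as the receptor, and the family's levels put the receptor's in context. Of 16 other genes listed with the bHLH-PAS family, 7 were tested. Among the 7 are Per1, Per2 and Per3, whose proteins have PAS domains but no bHLH domain, so their calls are not calls of bHLH-PAS factors. The clock repressor Per1 (39.4 CPM per kilobase) and the hypoxia factor Hif1a (20.4) stood above Arnt (9.13 CPM per kilobase), while Epas1 (7.75), Clock (5.83), Per2 (4.77) and Arntl (2.96) stood between Arnt and Ahr. The second ARNT gene, Arnt2, had 19 counts in total, and Npas3, Npas4, Hif3a, Sim1 and Sim2 had none. With PM on vehicle 1 of the 7 rose, Per2, a clock repressor (0.60 ± 0.15; edgeR adjusted p = 0.0256). On metformin 2 rose, Per1 (0.73 ± 0.10; edgeR adjusted p = 7.65e-05) and Epas1 (0.59 ± 0.18; edgeR adjusted p = 0.0323). With metformin after PM, Per1 (0.55 ± 0.10) and Arntl (0.48 ± 0.12) rose, with edgeR adjusted p of 0.00201 and 0.0166, and the PM effects differed for Per1 (0.85 ± 0.14; edgeR adjusted p = 0.00399). None of the 7 fell in any comparison, and metformin after PBS gave 0 calls (1 at an unadjusted p under 0.05; 0 with DESeq2 or limma-voom). With 1 library left out, the Per1 calls held in all 13 fits, those of Per2 (0.46 to 0.79) and Epas1 (0.47 to 0.77) in 9 and that of Arntl (0.41 to 0.56) in 10. The Epas1 call was also lost with DESeq2 and with limma-voom, and that of Arntl with the replicate block. The median log2 fold change of the 7 was 0.12, 0.28, 0.04, 0.14 and 0.19 in the 5 comparisons as listed above, against medians of all tested genes within 0.01 of 0. The share of all tested genes called was 4.85%, 12.8%, 3.07%, 6.89% and 1.44% in that order.

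**Figure D4:**
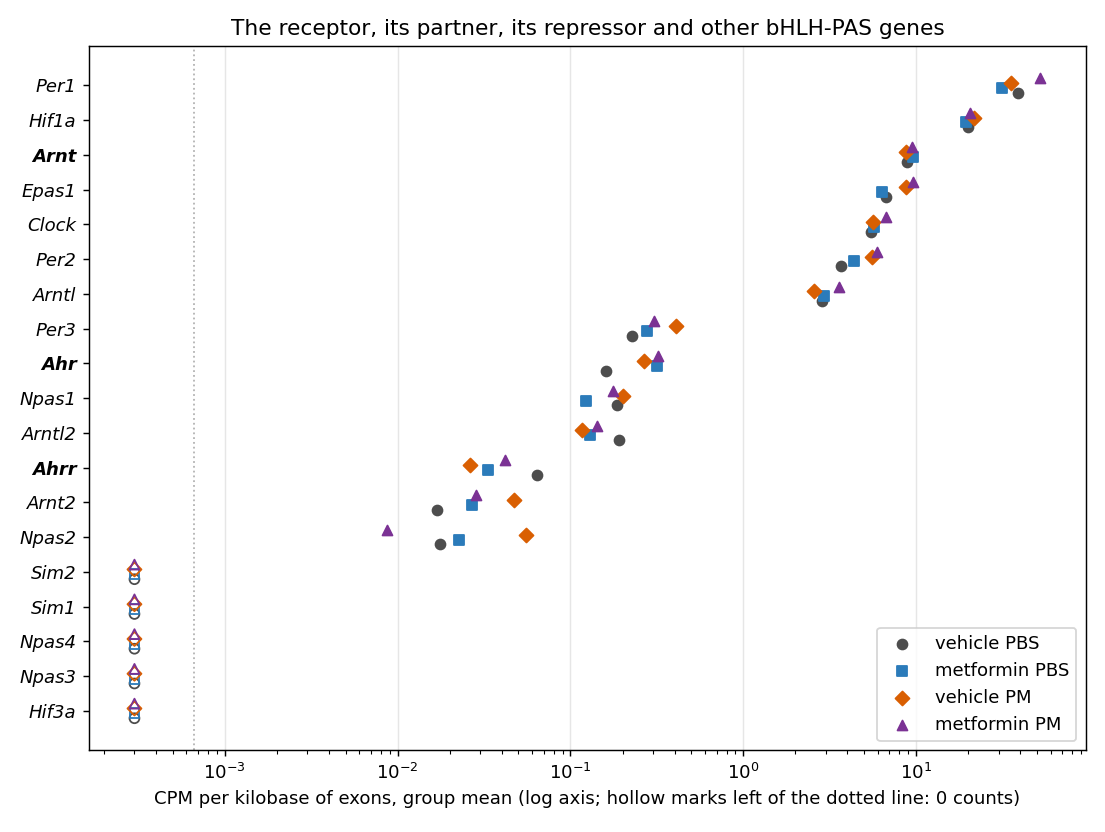
Group mean level of the receptor, its partner, its repressor (bold) and 16 other genes listed with the bHLH-PAS family, Per genes included. Levels are in CPM per kilobase of exon, on a log axis with 1 symbol per group. Hollow marks left of the dotted line stand for 0 counts. Arnt lies among the upper genes near 9 CPM per kilobase, Ahr is more than a decade lower, and 5 genes had no count.

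Genes for the proteins that hold and assist the receptor were all expressed. Each of 13 genes for its chaperone complex and coactivators was tested. PM on vehicle gave 0 calls (1 at an unadjusted p under 0.05; 0 with DESeq2 or limma-voom), and metformin after PBS 0 (6 unadjusted; 1 with DESeq2, 0 with limma-voom). With PM on metformin the coactivator Ncoa1 rose (0.29 ± 0.07; edgeR adjusted p = 0.00913) and the corepressor Nrip1 fell (-0.60 ± 0.13; edgeR adjusted p = 0.00534). After PM, metformin libraries had more Ncoa1 (0.71 ± 0.07; edgeR adjusted p = 1.68e-05) and more of the chaperone gene Hsp90aa1 (0.54 ± 0.10; edgeR adjusted p = 0.00201). Ncoa1 was at 130 ± 10.9 CPM in vehicle PBS (n = 4), 151 ± 4.84 in metformin PBS, 113 ± 5.32 in vehicle PM and 185 ± 13.9 in metformin PM (n = 3 each), and its PM effects differed between the waters (0.50 ± 0.10; edgeR adjusted p = 0.0110). With 1 library left out, the Ncoa1 rise with PM on metformin held in 11 of 13 fits (0.22 to 0.33) and the other calls of these genes in all 13. The medians of the 13 genes were -0.01, -0.02, 0.12, 0.04 and 0.07, and 4.85%, 12.8%, 3.07%, 6.89% and 1.44% of all tested genes were called.

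Other genes of the classic receptor battery ranged from no reads to many. Of 13 listed beyond the P450 genes already described, 5 were tested. Nfe2l2 had 19907 counts over all libraries, Ugt1a7c 5136 and Selenbp1 505, while Cyp1a2, Gsta1 and Gsta2 had 0 in all 13 libraries and Aldh3a1 had 1. Ugt1a6b had 1 count, but it and Ugt1a7c share exon bases, so how reads fell between them is uncertain. Nqo1, a quinone reductase that the oxidant sensor NRF2 induces as well, rose with PM on vehicle to 3.51 ± 0.458 CPM (n = 3) from 1.14 ± 0.227 CPM in vehicle PBS (n = 4), by 1.61 ± 0.29 on the log2 scale (edgeR adjusted p = 0.00161). On metformin Nqo1 was at 1.80 ± 0.144 and 2.34 ± 0.773 CPM (0.39 ± 0.30; edgeR adjusted p = 0.449), and the difference of the PM effects was not called (-1.22 ± 0.42; edgeR adjusted p = 0.206). Fmo2, a flavin monooxygenase, rose with PM on metformin (1.21 ± 0.28; edgeR adjusted p = 0.00720) and was higher with metformin after PM (1.54 ± 0.29; edgeR adjusted p = 0.00275). The Nqo1 and Fmo2 calls held with each library left out. Fibroblast markers lay higher in the same comparisons: 3 of the 5 tested rose with PM on metformin (median 1.28) and 2 with metformin after PM (median 1.14), Col1a1 (1.799 ± 0.43) and Col1a2 (1.17 ± 0.35). Col1a1 stood at 2.25 and 1.85 CPM after PBS without and with metformin and at 1.48 and 5.05 CPM after PM, and Fmo2 at 2.74, 2.44, 1.96 and 5.73 CPM in that order. These Col1a1 and Col1a2 calls held in 10 and 5 of 13 fits with 1 library left out, and that of Col1a2 was lost with DESeq2 and the replicate block. The part of fibroblasts in the Fmo2 difference was not tested. No tested battery gene fell in any comparison, and Nfe2l2, which encodes NRF2, was not called with PM on vehicle (-0.02 ± 0.05). Medians of the 5 tested genes were 0.05, 0.34, 0.08, -0.03 and -0.03, and 4.85%, 12.8%, 3.07%, 6.89% and 1.44% of all tested genes were called.

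A further 18 genes have been reported as receptor targets in some cell types, and 10 of them were tested. With PM on vehicle 3 rose and 1 fell (4.85% of all tested genes were called), and with PM on metformin 4 rose and 1 fell (12.8%). The epidermal growth factor receptor ligand Ereg rose on both waters (1.33 ± 0.29 and 1.18 ± 0.30; edgeR adjusted p = 0.00744 and 0.0138), as did Ptgs2, the inducible cyclooxygenase (1.12 ± 0.25 and 0.96 ± 0.27; edgeR adjusted p = 0.0109 and 0.0210). Areg, a second ligand of that receptor, rose on vehicle from 25.6 ± 4.11 CPM (n = 4) to 54.9 ± 15.8 CPM (n = 3), by 1.099 ± 0.16 on the log2 scale (edgeR adjusted p = 0.000268). On metformin Areg was at 34.3 ± 6.86 and 40.5 ± 3.08 CPM (0.25 ± 0.17; edgeR adjusted p = 0.403), and the PM effects were not shown to differ (-0.85 ± 0.24; edgeR adjusted p = 0.0861). With 1 library left out, the call of Areg held in all 13 fits, and those of Ereg and Ptgs2 in 12 on vehicle, where the call was lost without vehicle PM 3 (1.06 and 0.92). On metformin they held in 10 (0.998 to 1.54) and 9 (0.80 to 1.06), and both were lost with DESeq2.

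Entpd1, an ectonucleotidase, moved in opposite directions: it fell with PM on vehicle (-0.27 ± 0.07; edgeR adjusted p = 0.0267) and rose on metformin (0.24 ± 0.07; edgeR adjusted p = 0.0302), and the PM effects differed (0.51 ± 0.10; edgeR adjusted p = 0.0101). Slc7a5, an amino acid transporter, fell with PM on metformin (-0.41 ± 0.13; edgeR adjusted p = 0.0373). After PM, metformin libraries had less Slc7a5 (-0.68 ± 0.12), more Entpd1 (0.45 ± 0.07) and more Socs2, a suppressor of cytokine signalling (0.42 ± 0.10), with edgeR adjusted p of 0.00201, 0.000699 and 0.0177. With 1 library left out, the Entpd1 difference and both metformin calls of Slc7a5 and Entpd1 held in all 13 fits and that of Socs2 in 9. The PM calls held in 8 for Entpd1 on vehicle (-0.29 to -0.24), and in 9 on metformin for Entpd1 (0.17 to 0.32) and Slc7a5 (-0.57 to -0.32). The call of Slc7a5 with PM was also lost with limma-voom and with the replicate block, that of Entpd1 with PM on metformin with only the groups compared, and that of Socs2 with the replicate block. Metformin after PBS gave 0 calls (4 at an unadjusted p under 0.05; 1 with DESeq2, 0 with limma-voom). Medians were 0.19, 0.24, 0.10, 0.07 and -0.03, and Il22, Scin and Igfbp1 had no count. Many of these genes also answer to other stimuli, and none of their changes was tied to the receptor by a measurement here.

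**Figure D5:**
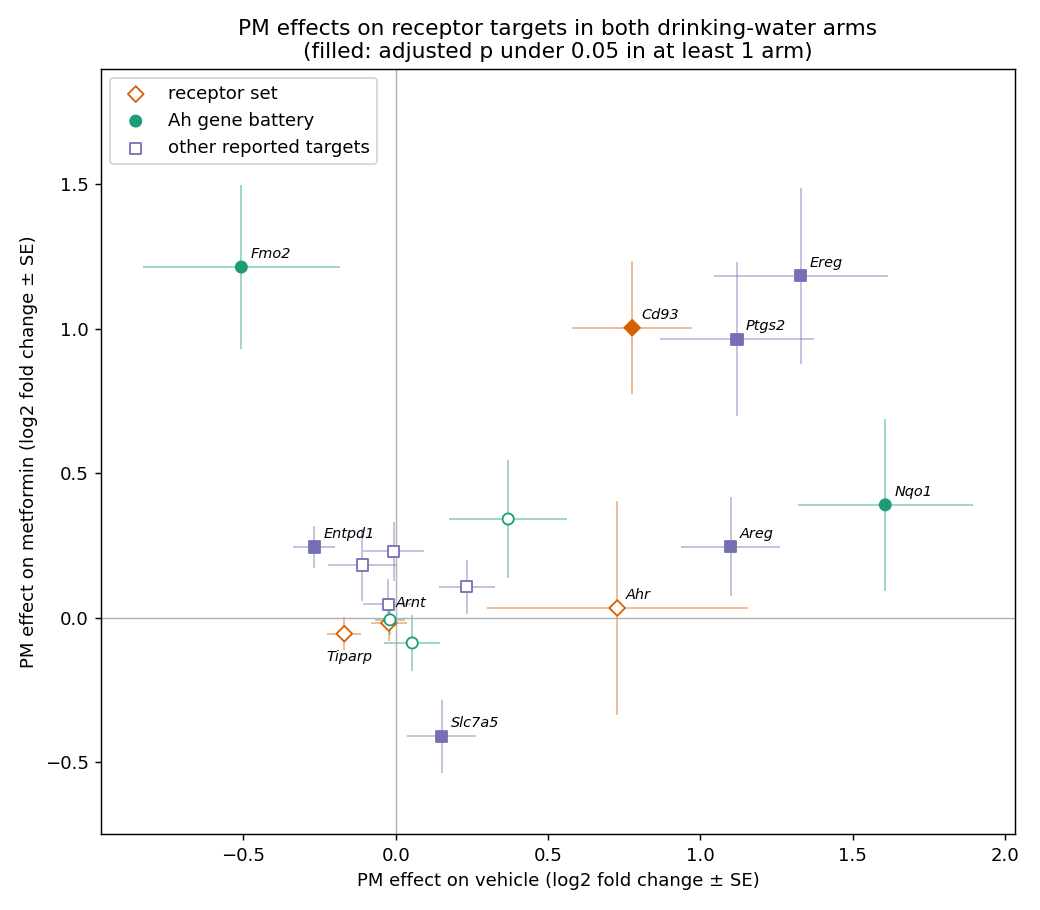
PM effect on metformin (vertical axis) against the PM effect on vehicle (horizontal axis), both log2 fold changes with bars of 1 SE, for tested genes of the receptor set, the Ah gene battery and other reported targets, the called ones being those named in the text; filled marks have an adjusted p under 0.05 in at least 1 arm. Ereg, Ptgs2 and Cd93 are high on both axes, Nqo1 and Areg on the horizontal axis, and Tiparp and Arnt sit near 0. The axes use different libraries.

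Of 16 enzymes that make or clear tryptophan-derived ligands of the receptor, 7 were tested. With PM 1 was called on vehicle (4.85% of all tested genes) and 1 on metformin (12.8%), and the dioxygenase genes Ido1 and Ido2 had 0 counts in all 13 libraries. Kynu, which cleaves kynurenine, had the most reads and stood at 65.2 ± 3.90 CPM in vehicle PBS (n = 4) and 69.0 ± 4.94 CPM in vehicle PM (n = 3; 0.08 ± 0.08; edgeR adjusted p = 0.697). Afmid, the formamidase of the pathway, fell with PM on vehicle (-0.87 ± 0.23; edgeR adjusted p = 0.0261), and the epoxide hydrolase Ephx1, which also processes aromatic hydrocarbons, fell with PM on metformin (-0.48 ± 0.12; edgeR adjusted p = 0.00907). With 1 library left out these calls held in 9 and 12 of 13 fits, and that of Afmid was also lost with only the groups compared and with the replicate block. Afmid (477 counts in all) shares exon bases with Tk1 on the other strand (3231 counts). No gene rose, and both metformin comparisons and the difference of the PM effects gave 0 calls (1, 1 and 2 at an unadjusted p under 0.05; 0 with DESeq2 or limma-voom). Medians of the 7 were 0.08, -0.20, 0.17, -0.11 and -0.38.

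Tiparp's relatives in ADP-ribosylation were all tested, 20 of 20. Parp8 fell with PM on vehicle (-0.34 ± 0.08; edgeR adjusted p = 0.0201) and on metformin (-0.30 ± 0.09; edgeR adjusted p = 0.0290), the direction in which Tiparp's values lay without passing the test. On metformin Parp4 also fell (-0.30 ± 0.07; edgeR adjusted p = 0.00576), and Zc3hav1, the zinc-finger antiviral gene that is Tiparp's close relative, rose (0.27 ± 0.06; edgeR adjusted p = 0.00255). With metformin after PM, Zc3hav1 (0.19 ± 0.05) and Parp16 (0.46 ± 0.14) rose, with edgeR adjusted p of 0.0405 and 0.0466, but these calls held in only 5 and 6 of 13 fits with a library left out. Both were also lost with DESeq2 and the replicate block, that of Zc3hav1 with no filter and that of Parp16 with limma-voom and with library totals. The Parp8 calls held in 9 on either water, and those of Parp4 and Zc3hav1 with PM in all 13. Medians of the 20 were -0.04, -0.07, 0.02, -0.02 and -0.00, and 4.85%, 12.8%, 3.07%, 6.89% and 1.44% of all tested genes were called.

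Among the C-type lectin relatives and binding partners of Cd93, 3 of 5 were tested. Thbd, the anticoagulant receptor thrombomodulin, was at 143 ± 7.20 CPM in vehicle PBS (n = 4), 157 ± 29.9 in metformin PBS, 151 ± 21.5 in vehicle PM and 213 ± 10.3 in metformin PM (n = 3 each). It rose with PM on metformin (0.44 ± 0.11; edgeR adjusted p = 0.00830) and was higher with metformin after PM (0.50 ± 0.11; edgeR adjusted p = 0.00622), but was not called with PM on vehicle (0.08 ± 0.10; edgeR adjusted p = 0.778). With 1 library left out, the PM call held in 12 of 13 fits (lost without metformin PBS 3) and that of Igfbp7 in 11. The matrix protein gene Igfbp7, a ligand of CD93, rose with PM on metformin (1.37 ± 0.35; edgeR adjusted p = 0.0137) from a low level of 1.33 CPM. Its group means were above the filter's 1.57 CPM only in vehicle PM (1.75 CPM) and metformin PM (3.48 CPM), so its test was tilted toward a rise. Igfbp7 also shares exon bases with Polr2b on the other strand (6343 counts against its 162). In this comparison 3 of 5 tested fibroblast markers, 4 of 9 epithelial markers and 3 of 10 endothelial markers rose as well, beside 12.8% of all tested genes called. The part of those cell types in the Igfbp7 and Thbd differences was not tested. Clec14a, another endothelial lectin, was at 1.07 to 1.87 CPM in the group means and was not called. Medians of the 3 were 0.08, 0.44, 0.32, 0.78 and 0.45, and 4.85%, 12.8%, 3.07%, 6.89% and 1.44% of all tested genes were called.

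The genes whose log2 CPM followed each member most closely over the 13 libraries were taken from 10642 named genes by Pearson's r, which here also carries the group differences and library depth that all genes share. They were Ank2 (0.843), Rps6kc1 (0.824) and Evi5 (0.820) for Ahr, and Tcp11l2 (0.879), Trip10 (0.872) and Cybc1 (0.869) for Arnt. For Tiparp they were Myo9b (0.906), Acbd4 (0.874) and Masp2 (0.850), and for Cd93 they included Atp6v1a (0.956) and Mrpl52 (0.940). None of those named is in the receptor lists, and with Spearman's rank correlation only 2 of the 3 for Tiparp and 1 of the 3 for Cd93 came up again, none for Ahr or Arnt.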

How the data were processed

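The submitters' processing notes name bcl2fastq (version 2.19), TopHat2, the mm10 genome, HTSeq and edgeR. Per the file headers, the deposited values are 1 raw read count per gene and library, and its coordinate and length columns (the unit "other" in the deposited file) served for positions only. The annotation release and strand setting are not given in the sources used here. The deposited length exceeds the gene's span for 1982 genes, so levels per kilobase use merged exons of GENCODE M21. The 13 libraries were fitted together in edgeR 4.0.16 (R 4.3.3, limma 3.58.1): filterByExpr, trimmed mean of M values, 1 coefficient per group, quasi-likelihood F test, Benjamini-Hochberg adjustment over 11906 genes. CPM uses the scaled library sizes. Counts of genes that share exon bases with a counted neighbour are uncertain (Tiparp, Hif1a, Ugt1a6b, Afmid, Ephx1, Parp4, Igfbp7 and Mmp12 among those named). The test was checked on simulated data.

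Members and the 14 gene lists were chosen with earlier results of these data known. By rule, the text names each member, up to 6 called genes per list (otherwise those with most reads), and the 3 genes most like each tested member. Genes with too few reads have counts, exact Poisson 95% intervals and a floor of 3 counts. Alternatives covered DESeq2 1.42.0, limma-voom, scaling, filters, a replicate block and each library left out. Same-numbered libraries showed no more shared deviation than differently numbered ones. A few genes of the lists are counted but not reported here.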

Additional observations from a re-analysis of the deposited data

How the results depend on the processing

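Of 429 recomputed values of the tested members, 402 kept their direction and side of the threshold. The 1 member called with PM on vehicle became 0 with DESeq2, and ranged from 0 to 1 with each library left out (0 when vehicle PM 2 or either of vehicle PBS 3 and 4 was omitted). With PM on metformin the range was 0 to 1 (0 without metformin PM 3). Metformin after PBS went from 0 to 1 with no filter on low counts (Cd93 -0.58, edgeR adjusted p = 1.21e-05) and with only the groups compared (-0.58, edgeR adjusted p = 0.0495), and metformin after PM from 0 to 1 with no filter (-0.37, edgeR adjusted p = 0.00383). The cause was not tested.

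Values that changed sign were all uncalled. For PM on vehicle, leaving out 1 library moved Arnt between -0.048 and 0.003. For PM on metformin it moved Arnt between -0.07 and 0.008 and Ahr between -0.49 and 0.23, and limma-voom gave -0.075 for Ahr. For metformin after PM it moved Ahr between -0.22 and 0.50, and after PBS Tiparp between -0.014 and 0.048. For the difference of the PM effects, Arnt ran from -0.047 to 0.032 and was -0.004 with DESeq2 and with relative log expression factors, and -0.01 with no filter.

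Replicate numbers are shared between groups, but the 16 same-numbered pairs correlated between -0.10 and 0.12. The 47 differently numbered pairs ran from -0.143 to 0.141, so no pairing by number was detected. With a replicate block the members called did not change (Cd93 0.72 and 0.997 with PM), Tiparp after PBS was -0.008 and the Arnt difference -0.003. Over all genes the block took the metformin calls after PM from 820 to 535. Without a filter, metformin after PBS called 813 genes in place of 365 and the difference of the PM effects 507 in place of 171. With only the groups compared, metformin after PBS called 200. With a library left out the calls ranged from 359 to 645 (PM on vehicle), 884 to 1666 (PM on metformin), 121 to 503 and 419 to 954 (metformin after PBS and PM) and 113 to 262 (the difference).

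Depth limits Ahr, Ahrr, Cyp1a1 and Cyp1b1: none exceeded 25 counts in a library, and their intervals are wide. Of 62 called values of list genes and markers, recomputed as an addition made after seeing the data, 28 kept the call in each setting and 34 lost it with at least 1 library left out.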
